A study of Drosophila melanogaster with 3 samples.

Results

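Distal intronic peaks are sites of Dbx-eGFP recovery that lie inside a protein-coding gene, in no annotated coding sequence or untranslated region, and more than 2000 bp from the nearest transcription start site (TSS) of any protein-coding gene. They were chosen by position alone: the summit of each peak in the conservative list, thresholded on the irreproducible discovery rate (IDR, a measure of how well peak ranks repeat), was placed on the Ensembl dm6 annotation. Of 4943 summits, 743 met the rule, and all 743 lay in an annotated intron. The list comes from anti-GFP chromatin immunoprecipitation with sequencing (ChIP-seq) of whole Drosophila melanogaster embryos of 8 to 24 h by their source name, from strain Dbx-GFP, which carries a Dbx-eGFP transgene. The 3 samples were labelled as biological replicates of 1 group, and all carried the fusion protein. Whole organisms were used, so the cells behind a peak are not known, and the fusion stands in for the native protein. The labels describe the antibody as anti-GFP, while another field names Dbx, and a separate age field holds a value that an embryo cannot have. A control was not analysed here, so how far any peak is particular to the fusion was not tested.

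Dbx is a homeodomain transcription factor, of a class of proteins that bind short AT-rich words in DNA through a helix-turn-helix fold, and in the fly embryo it is known from interneurons of the ventral nerve cord. Introns of Drosophila developmental genes commonly hold enhancers, stretches of DNA that transcription factors bind to raise the activity of a promoter at a distance. Long introns also hold alternative promoters and noncoding RNA genes, so an intronic site is not by its position an enhancer.

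Sequences are shown for the strongest distal intronic peaks, those of highest signal that overlapped a peak in all 3 replicate lists. The word tests described later used distal intronic peaks of all ranks. The signal is the authors' own enrichment value and serves here only to order peaks within a list. Each sequence has 30 bases from the RefSeq copy of dm6, written 5′ to 3′ on the strand given. In the first set the capitals mark ACAGTG. Of the 6 bp words over-represented at distal intronic summits compared with their flanks, it had the smallest p. It lay within 100 bp of the summit in 6 of the 15 peaks examined out of the 20 strongest, and in 5 of those 6 it was read towards the summit. The exception was Gug.
CHES-1-like, chrX:7706890-7706919, plus strand, 80 bp before the summit: tatcgttgtggtACAGTGgaaactgcttta
simj, chr3L:10683095-10683124, minus strand, 84 bp after the summit: agcggaggggctACAGTGgtcaacaggtac
Gug, chr3L:8458231-8458260, minus strand, 65 bp before the summit: ttgtatttttccACAGTGtaaagaccaaca
Raf, chrX:2297784-2297813, minus strand, 83 bp after the summit: ctggcagcaggtACAGTGaacaccgaacga
tara, chr3R:16247875-16247904, minus strand, 74 bp after the summit: gaacaaatgtacACAGTGgaaaattaaatt
Btk, chr2L:8292525-8292554, plus strand, 65 bp before the summit: tcattttcagatACAGTGcgtttcgaaaat

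The palindromic homeodomain core TAATTA, marked by capitals in the next set, lay within 100 bp of the summit in 2 of the same 15 peaks.
simj, chr3L:10683026-10683055, plus strand, 15 bp after the summit: aaaattgccagtTAATTAtgataaataaat
Btk, chr2L:8292580-8292609, plus strand, 10 bp before the summit: aaaaaaactgcaTAATTAatatcttgactt
The strongest peak of all, in Tlk, held neither word. It is shown round its summit base, which is in capitals, and then round AGTGTA, the over-represented word with the second smallest p.
Tlk summit, chrX:3742200-3742229, plus strand: tggtatatatacatcTtagttttaatcaag
Tlk, chrX:3742231-3742260, minus strand, 31 bp after the summit: catgccaaaagcAGTGTAataaaaaatcta
Of the 15 peaks, 9 held neither ACAGTG nor TAATTA, and 11 held at least 1 of the 6 leading words. Singly, each of the 6 lay in 13.8% to 20.4% of distal intronic summit windows. The 6 were picked from these same peaks. The share of other windows with at least 1 of them was not computed, so the 11 are a description only. A match describes the letters in the window and does not show that a protein bound them.

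Distal introns held fewer peaks than their length. The 743 summits were 15% of the list (95% Wilson interval 14.1% to 16.1%), while the bases that meet the same rule, 42.3 Mb, were 31.6% of the main chromosomes, a ratio of 0.476 (two-sided exact binomial test, p = 2.25e-157). In the replicate lists 524 of 3701, 458 of 3353 and 381 of 2515 summits met the rule, a mean of 14.3% ± 0.758 (SD, n = 3), and all 3 shares lay below the share of bases. Here and in the tests that follow each peak was taken as independent of the others, so a p-value reflects the number of peaks and not the spread between embryos. Among the 500 peaks of highest signal in the list the share was 8.60%.

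The strongest distal intronic peaks were found in every replicate. All 43 of those ranked 1 to 500 in the conservative list overlapped a peak in all 3 replicate lists. The strongest, in intron 1 of Tlk, which encodes a nuclear protein kinase of chromatin assembly, ranked 32 in the conservative list and 16, 36 and 51 in replicates 1, 2 and 3. Its signal on the authors' scale was 508, 451 and 347 in those lists. The next, in CG32486, ranked 48, with 60, 49 and 36 in the replicates. CHES-1-like, a forkhead transcription factor gene, held the peak ranked 81, which ranked 68, 79 and 105 in replicates 1, 2 and 3 and lay 2022 bp from a TSS, just inside the rule. A peak in CG12769 ranked 86, with replicate ranks of 86, 116 and 64. These 4 sites stayed within the highest 120 places of each replicate list. The gene osa, which encodes a subunit of the Brahma chromatin remodelling complex, held 2 peaks of nearly equal rank in intron 4, at 90 and 91. They ranked 85, 127 and 71, and 66, 112 and 99, in the replicates. Their summits, at positions 17700557 and 17704396 of chromosome 3R, were 13486 and 13954 bp from the nearest protein-coding TSS, although the former lay 184 bp from the start of the noncoding RNA gene lncRNA:CR46036.

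**Figure D1:**
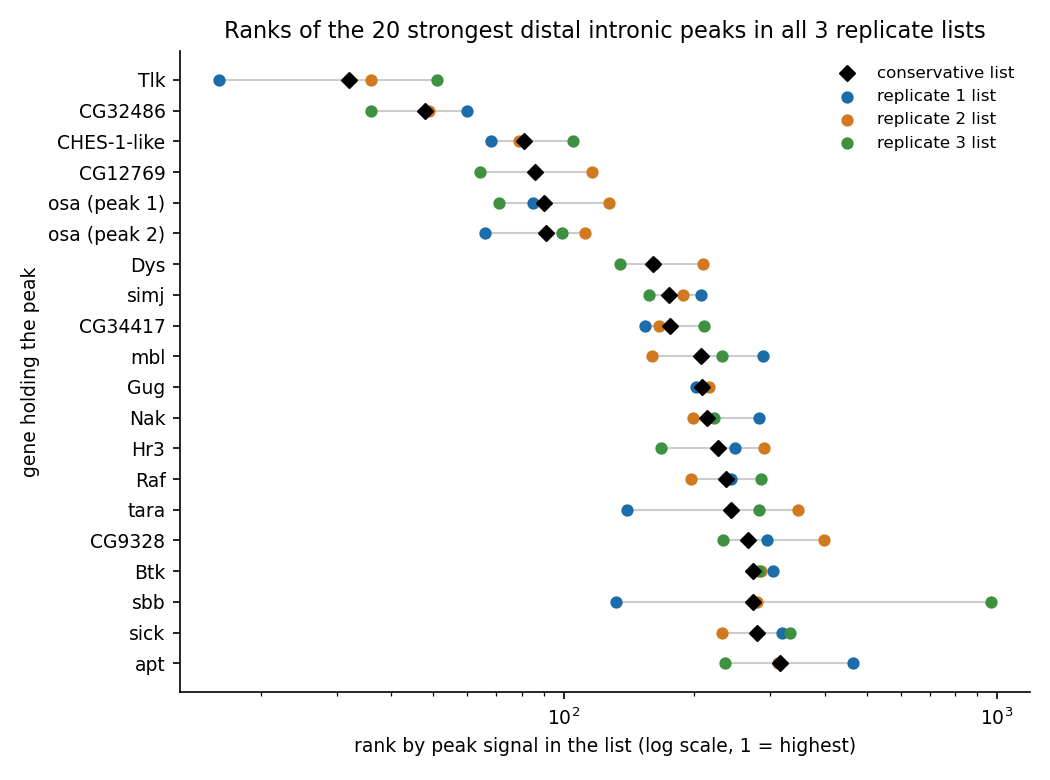
Rank by peak signal (log axis, 1 is the highest) of the 20 strongest distal intronic peaks in the conservative list (diamonds) and in the 3 replicate lists (circles), with the gene that holds each peak. Most circles lie close to their diamond, and the widest spread is that of sbb, at 132, 280 and 969.

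The other 14 of the 20 strongest sites ranked 161 to 315. They lay in genes of signalling, of chromatin and transcription, and of other functions. Of the signalling genes, Raf, a kinase downstream of receptor tyrosine kinases, ranked 237 with replicate ranks of 243, 197 and 285. Btk, a Tec family tyrosine kinase, ranked 273, with 304, 286 and 282. Nak, the Numb-associated kinase, ranked 214, with 282, 199 and 222. Among genes of transcription, simj, a subunit of the NuRD remodelling complex, ranked 175, with 208, 189 and 157. Gug, the Atrophin corepressor, ranked 209, with 202, 216 and 210, the narrowest range of the 20. Hr3, a nuclear receptor of the ecdysone response, ranked 227, with 248, 290 and 168. The peaks in tara and apt, both genes of transcriptional regulators, ranked 243 and 315 and moved more between replicates, from 140 to 348 and from 236 to 464. The muscle genes were Dys, the fly dystrophin, at rank 161 in intron 16, and mbl, a regulator of splicing, at rank 207. The peaks in CG34417, CG9328 and sick ranked 176, 267 and 280. The peak in sbb, a nuclear corepressor gene, ranked 274, with 132 and 280 in replicates 1 and 2 but 969 in replicate 3.

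Fewer distal intronic peaks than promoter peaks recurred in all replicates. The conservative peak overlapped a peak by at least 1 bp in all 3 replicate lists for 235 of the 743 (31.6%), in exactly 2 lists for 156 (21.0%), in 1 list for 170 (22.9%) and in none for 182 (24.5%). Replicate 1 held 437 of them (58.8%), replicate 2 held 410 (55.2%) and replicate 3 held 340 (45.8%). For promoter peaks, within 250 bp of a TSS, the share in all 3 lists was 38.7%, a distal minus promoter difference of -7.03 points (two-sided Fisher exact test, Benjamini-Hochberg over 3 comparisons, adjusted p = 0.00141). For intronic peaks more than 250 and up to 2000 bp from a TSS, called near-intronic here, it was 38.4% (difference -6.75 points, Fisher exact adjusted p = 0.0104), and for intergenic peaks, outside genes and over 250 bp from a TSS, it was 35.5% (-3.84 points, adjusted p = 0.130). The difference from near-intronic peaks no longer passed the exact test when 50% of the peak had to be covered (adjusted p = 0.174), nor over replicates 2 and 3 alone (adjusted p = 0.0770). Neither it nor the difference from promoters passed when the distance was set at 5000 bp, with adjusted p of 0.352 and 0.0657. Which replicates the conservative list itself compares is not stated in the sources used here.

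Recurrence followed rank in both classes. Of the distal intronic peaks ranked 1 to 500, 100% were found in all 3 lists, of those ranked 501 to 1000 97.0%, and of those ranked 1001 to 2000 65.9%. The shares of promoter peaks in the same ranges were 99.7%, 94.9% and 59.7%. At ranks 2001 to 3000 the distal share was 14.1% against 11.4% for promoters, at 3001 to 4000 it was 1.76% against 1.05%, and at 4001 to 4943 it was 6.90% against 9.31%. Within a rank range, then, the distal intronic share was above the promoter share in all ranges but the last, and these differences were not tested. All 10 distal intronic peaks in the last range that were found in all 3 lists had a stronger summit within 400 bp, so the same replicate peak can underlie both. Fewer distal intronic peaks were strong: 140 (18.8%) were in the 25% of the list with highest signal, against 27.5% of promoter peaks (Fisher exact adjusted p = 3.91e-06), 27.5% of near-intronic peaks (adjusted p = 0.000108) and 23.7% of intergenic peaks (adjusted p = 0.0276). In the replicate lists the distal share was 18.4% ± 2.12, against 27.5% ± 1.71, 27.0% ± 2.33 and 21.6% ± 1.93 (SD, n = 3).

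**Figure D2:**
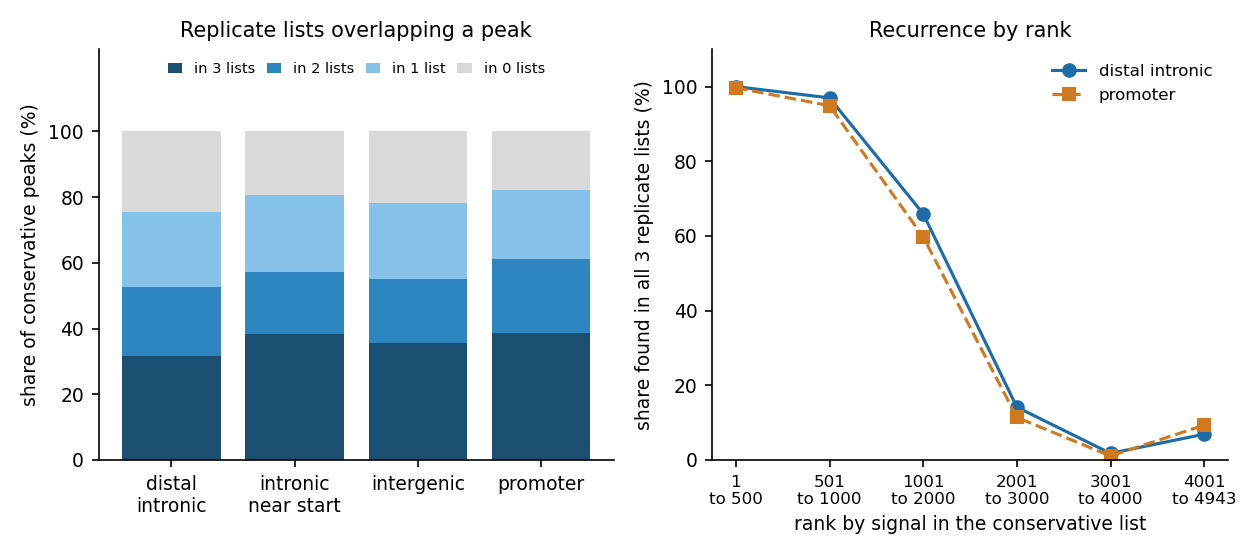
Left, the share of conservative peaks of each class that overlapped a peak in 0, 1, 2 or 3 replicate lists. Right, the share found in all 3 lists by rank in the conservative list, for distal intronic (circles) and promoter (squares) peaks. The distal intronic bar has the smallest part in all 3 lists, 31.6%, while the curves by rank run close together.

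The strongest peaks that overlapped none in any replicate list were of middling rank. They lay in Dop1R2 (rank 2153), a dopamine receptor gene, in mtgo (rank 2375), in kirre (rank 2459), an immunoglobulin protein of myoblast fusion, in sli (rank 2493), the midline repellent of axons, and in sdt (rank 2620), a gene of epithelial polarity. None of the 244 distal intronic peaks ranked 1 to 2000 was without a replicate match.

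Summits gathered towards start sites even within the distal class. Between 2 and 5 kb from a TSS lay 350 peaks (47.1%), where 28.6% of distal intronic bases lie. Between 5 and 10 kb lay 228 (30.7% against 25.4% of bases), between 10 and 20 kb 104 (14% against 20.9%), and beyond 20 kb 61 (8.21% against 25.1%). The density fell from 29.0 to 21.3, 11.8 and 5.74 peaks per Mb. In the replicate lists the shares were 48.1% ± 1.65, 29.1% ± 1.12, 14.8% ± 1.13 and 8.01% ± 1.19 (SD, n = 3). The median distance was 5312 bp for peaks and 8974 bp for bases. Recurrence did not follow distance: 30.6%, 34.2%, 30.8% and 29.5% of the peaks in the 4 ranges were found in all 3 replicate lists.

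**Figure D3:**
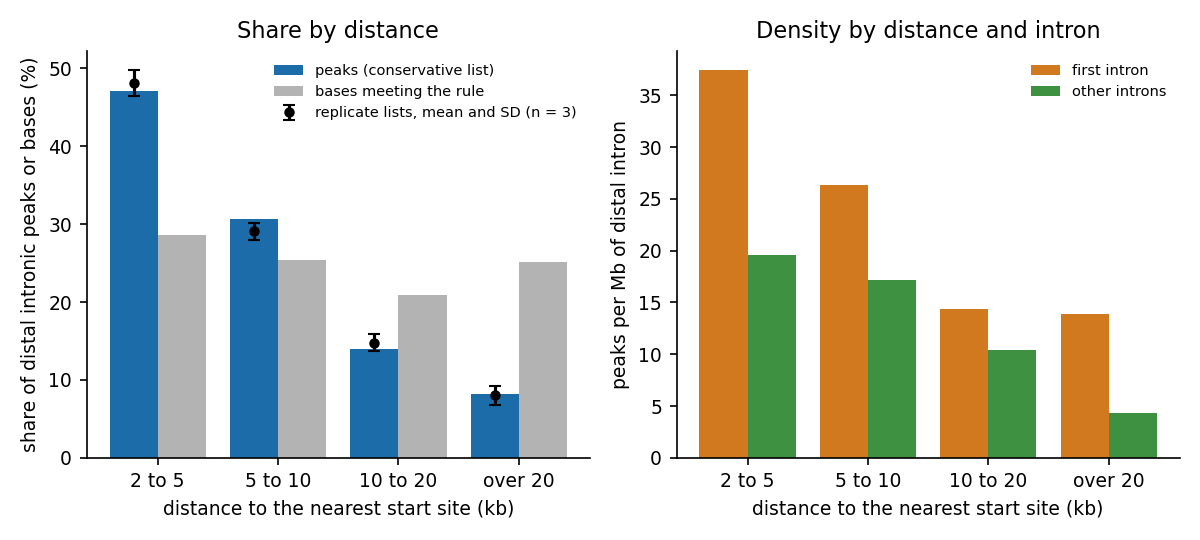
Left, the share of distal intronic peaks (blue bars) and of bases meeting the same rule (grey bars) by distance to the nearest start site, with the mean and SD of the 3 replicate lists as points. Right, peaks per Mb in first introns and in other introns at the same distances. Peaks exceed bases within 10 kb, and first introns have the higher density in every range.

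First introns held more of the peaks than of the bases. The summit lay in intron 1 of at least 1 transcript of its gene for 428 of the 743 peaks (57.6%, 95% Wilson interval 54.0% to 61.1%), against 37.1% of distal intronic bases (exact binomial p = 1.33e-29). In the replicate lists the share was 58.8% ± 1.23 (SD, n = 3). First introns lie nearer to start sites, but their density was the higher in every distance range. It was 37.4 against 19.6 peaks per Mb at 2 to 5 kb, 26.4 against 17.2 at 5 to 10 kb, 14.4 against 10.4 at 10 to 20 kb and 13.9 against 4.31 beyond 20 kb. Counting only positions that are in intron 1 of every transcript that spans them, the share was 28.5% against 21.3% of bases (exact binomial p = 3.73e-06). Along the intron 21.4%, 20.3%, 20.7%, 21.7% and 15.9% of the peaks lay in 5 equal parts from the 5′ end. The rule leaves out bases near start sites, and the share of eligible bases in each part was not computed. These shares therefore do not show whether the peaks were spread evenly.

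The 5 farthest sites were in Sema1a, luna, hth, mamo and jing. A peak in intron 3 of Sema1a, a gene of axon guidance, lay 61652 bp from any TSS, ranked 4158 and was found in replicate 1 only. Peaks in luna, a Krüppel-like factor gene, at 53998 bp, and in jing, a zinc finger gene, at 42249 bp, were in no replicate list. A peak in hth, the homeodomain partner of Hox proteins, lay at 49818 bp and was in replicates 1 and 2. Of these 5 the peak in mamo, a BTB zinc finger gene, at 42284 bp, was found in all 3 lists, with ranks of 1080, 680 and 465. At the other edge, the members nearest to the limit lay 2002 bp from a TSS, in fru, mtgo and CG32572, and the nearest intronic summits outside it, in tna, CG9171 and CG3764, lay at 1986, 1978 and 1964 bp.

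Annotated repeats held none of the peaks, although 7.83% of distal intronic bases are in annotated transposable elements. A count of 0 of 743 allows a share of up to 0.404%, by counting error only, and how reads that map to several places were treated is not given in the sources used here. By chromosome the density was 19.8 peaks per Mb of distal intron on 2L, 18.9 on 2R, 18.5 on 3L, 13.6 on 3R and 20.3 on X, and chromosome 4 held 1 peak. Noncoding RNA genes started within 250 bp of 20 of the peaks (2.69%), as they do for 0.645% of distal intronic bases. Of these 20, 7 were found in all 3 replicate lists and 8 in none. Besides osa these included a peak in Atg18b, 5 bp from the start of snRNA:U4:39B, and peaks in LpR2, puc, ena and Hipk, 151, 114, 92 and 111 bp from the starts of long noncoding RNA genes. These 5 were named after their values were seen, from those in all 3 lists. In noncoding RNA exons lay 14 of the 743 peaks (1.88%), among them the osa peak of rank 91 and the mbl peak of rank 207. The share of distal intronic bases in such exons was not computed.

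Most genes with distal intronic bases held no peak. Of 4350 protein-coding genes with any distal intronic base, 453 (10.4%) held at least 1 peak, 168 held 2 or more and 36 held 4 or more. Genes with 2 or more held 475 of the 743 peaks. Of the 4350 genes, 1914 had at most 1 kb of distal intron, while the 176 with over 50 kb held 162 peaks. Whether peaks gather in genes beyond what the length of distal intron gives was not tested. The share of genes holding a peak was higher for longer distal introns, from 0.627% of genes with up to 1 kb of distal intron to 41.5% of those with over 50 kb. The density did not: it was 21.8, 29.4, 31.1, 27.5, 20.5 and 8.72 peaks per Mb from the shortest to the longest of 6 length ranges. Genes that held a peak also had a promoter peak of the list at one of their own start sites more often, 52.8% of them against 26.1% of the other genes. Among genes with over 20 kb of distal intron the shares were 54.5% and 20.3%, and these were not tested.

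The gene with most peaks was sbb, with 13 in 46.8 kb of distal intron. Of these 7 were found in all 3 replicate lists, and 8, 9 and 7 distal intronic peaks were listed in it in replicates 1, 2 and 3. The smallest gap between its summits was 200 bp, and neighbours that close can overlap the same replicate peak. Eip75B, a nuclear receptor gene induced by ecdysone, held 9, of which 2 were found in all 3 lists, and listed 7, 5 and 2 in the replicates. Snoo, a Ski family gene of TGF-beta signalling, held 8, with 7, 5 and 4 in the replicates. Next, with 7 each, came mam, the Notch coactivator Mastermind, with 5, 2 and 1 in the replicates, Hr4, a nuclear receptor gene, with 6, 4 and 5, and RapGAP1, with 3, 2 and 2. The overlapping genes Glut4EF and CG46467 share the same 7 peaks. The 7 peaks of kirre were spread over 292 kb of distal intron, and the strongest, at rank 446, also lies within CG32795. CHES-1-like had the least distal intron of the 10 genes with most peaks: its 6 lay in 7.87 kb of distal intron, 4 were found in all 3 lists, and 6, 5 and 5 were listed in the replicates. Raf also held 6, 4 of them in all 3 lists.

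Per Mb of distal intron, chromatin genes held the most peaks of the gene lists examined, and genes of the synapse and of axon guidance were among those with the fewest. By the share of genes holding a peak the order differed: 24.4% of chromatin genes, 17.2% of axon guidance genes and 10.3% of synapse genes, against 10.4% of all genes. The density also differs with length, being 8.72 per Mb in the longest genes, and the median length of distal intron was 1.88 kb in the chromatin list, 31.6 kb in the axon guidance list and 18.4 kb in the synapse list. Of all genes with 1 to 5 kb, 20 to 50 kb and 10 to 20 kb of distal intron, 6.11%, 32.9% and 24.0% held a peak. The lists were chosen with earlier results of these data known, so they are described by counts and not tested. Over all genes the density was 17.6 peaks per Mb of distal intron. In the list of chromatin, Polycomb and trithorax group genes it was 85.5 per Mb, with a peak in 11 of 45 genes. These were led by osa, by Smr, a corepressor with 6 peaks (3 in all 3 lists), by Mi-2, the NuRD remodeller with 4, and by chm, a histone acetyltransferase gene with 1. The 4 peaks of Mi-2 also lie within the overlapping gene Su(Tpl). Smr listed 3, 2 and 3 in the replicates. Its smallest gap between summits was 210 bp, and neighbours that close can overlap the same replicate peak. In the replicate lists the density of the chromatin list was 5.64, 3.94 and 4.74 times that of all genes.

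Nuclear receptors and other ecdysone response genes held 51.7 peaks per Mb, in 7 of 19 genes (36.8%, against 10.4% of all genes). The median length of distal intron in this list was 23.0 kb. Of all genes with 20 to 50 kb of distal intron, 32.9% held a peak. EcR, the ecdysone receptor, held 2 peaks 202 bp apart, both found in all 3 lists, the stronger of rank 381. Summits that close can overlap the same replicate peak, so the 2 may be 1 recurrent site. Hr3 held 2 and Hr4 and Eip75B held 7 and 9. Their density was 3.24, 3.18 and 2.34 times that of all genes in the replicates. The list of neuroblast and neuronal temporal regulators held 53.1 per Mb, but 13 of its 21 peaks were those of sbb. The others were in bi, grh, N and chinmo with 1, 1, 1 and 2, and in brat with 3.

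Growth factor and patterning genes held 37.1 peaks per Mb, with at least 1 peak in 17 of 48 genes (35.4%, against 10.4% of all genes). The median length of distal intron in this list was 14.3 kb. Of all genes with 10 to 20 kb of distal intron, 24.0% held a peak. The highest ranks were those of aos, a secreted inhibitor of the EGF receptor, at 463, of sog, an antagonist of Dpp, at 719, of arr, a Wnt co-receptor, at 758, and of pnt, an Ets factor, at 996. Muscle and mesoderm genes held 28.7 per Mb, in 11 of 37 genes (29.7%), with a median length of distal intron of 10.4 kb. Besides Dys and kirre these included Pdp1, a bZIP factor gene with 3 peaks, 2 of them in all 3 lists at ranks 522 and 556, and Mef2, the muscle MADS box factor, with 4 peaks of which the strongest ranked 848. The glial list rested on pnt with 5 peaks and Gs2, a glutamine synthetase gene, with 1. They were 2 of 17 genes (11.8%, against 10.4% of all genes), and the median length of distal intron in this list was 1.15 kb. The peaks of pnt are also counted in the growth factor list. The density of the glial list was 3.62 times that of all genes, but 1.91 times among peaks found in all 3 replicate lists.

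Homeodomain genes held 13.8 peaks per Mb, in 7 of 60 genes (11.7%, against 10.4% of all genes). The median length of distal intron in this list was 11.7 kb. Of all genes with 10 to 20 kb of distal intron, 24.0% held a peak. Of the 14 peaks in homeodomain genes, 1 was found in all 3 replicate lists, in hth, at rank 608 with replicate ranks of 685, 690 and 625. Antp, a Hox gene, held 2, ct, a cut class gene, held 3 and NK7.1 held 3, none of them in all 3 lists. Genes of axon guidance and adhesion held 6.22 per Mb, in 10 of 58 genes (17.2%), a share above that of all genes. Their median length of distal intron was 31.6 kb, against 1.60 kb over all genes. Of all genes with 20 to 50 kb of distal intron, 32.9% held a peak. Of the 17 peaks in axon guidance and adhesion genes 3 were found in all 3 lists, in kirre, in side and in ena, an actin regulator of growth cones. Both peaks in Fas3 were not. Synapse, transmitter and excitability genes held 4.94 per Mb, in 7 of 68 genes (10.3%), with a median length of distal intron of 18.4 kb. That share is near the one over all genes, but below the 24.0% of all genes with 10 to 20 kb of distal intron. The strongest peak of the synapse list was in ChAT, the choline acetyltransferase gene of cholinergic neurons, at rank 766 with replicate ranks of 574, 996 and 906. The strongest peaks in Rbfox1, Ca-alpha1T and Dop1R2 ranked 1776, 2012 and 2153, and none of the peaks in those 3 genes was found in all 3 lists. In the replicates the synapse density was 0.181, 0.166 and 0.149 times that of all genes, and the axon guidance density 0.295, 0.203 and 0.406 times. Among peaks found in all 3 replicate lists these densities were 0.161 and 0.198 times that of all genes, and the homeodomain density was 0.177 times, against 0.784 in the whole list. Ribosomal protein genes held none, but only 2 of them had any distal intronic bases.

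**Figure D4:**
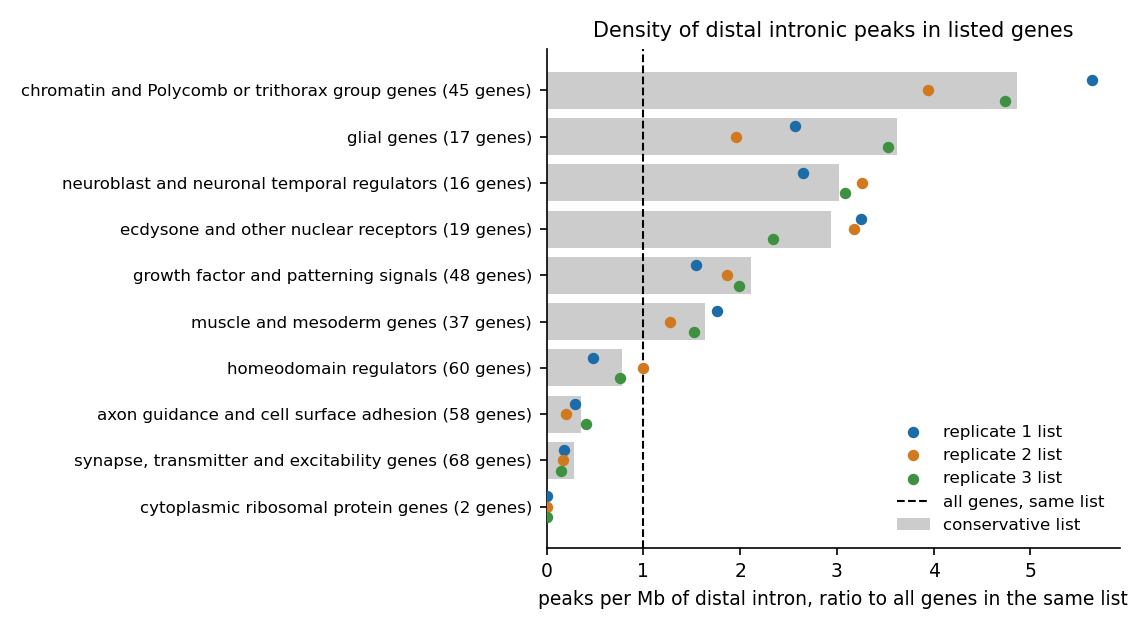
Peaks per Mb of distal intron in each gene list, as the ratio to all genes in the same peak list, for the conservative list (bars) and the replicate lists (points), with the number of genes that have distal intronic bases. All 3 points lie above 1 for the 6 lists from chromatin to muscle genes and below 1 for axon guidance and synapse genes. Homeodomain genes lie near or below 1.

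No homeodomain word was called more frequent at the summits than beside them. Presence on either strand within 100 bp of the summit was compared with a window of the same width 1000 bp away that met the same rule, for the 700 peaks that had one after summits within 200 bp of each other were thinned to 734. TAATTA lay in 15% of summit windows and 16.3% of flanks (exact McNemar p = 0.545 before adjustment). It lay in 15.1% of all 734 summit windows and in 14.2% of 195486 windows that tile distal introns. TAATTG, the Antp class word, lay in 17.6% and 20.1%, and TAATCC, the Bicoid class word, in 4.71% and 5.29%. None of the 23 listed words passed at an adjusted p of 0.05, the smallest being 0.380, and 2 had an unadjusted p below 0.05. Those were ACAATG, a Sox word, and GCCATT, a Pleiohomeotic word, both lower at summits. A p that misses the threshold does not show that shares are equal, and in the peaks found in all 3 replicate lists the log2 ratio of TAATTA at summits over flanks was 0.30 instead of -0.12, again with no call.

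Other words did differ between summits and flanks. Over all 2080 words of 6 bp, with reverse complements joined, 39 were more frequent at summits (1.88% of words) and 18 less frequent (0.865%; exact McNemar test with Benjamini-Hochberg adjustment). The leading word was ACAGTG, in 20.4% of summit windows and 6.57% of flanks, a ratio of 3.11 (exact McNemar adjusted p = 3.91e-11). It lay in 7.28% of the windows that tile distal introns. AGTGTA followed, in 17.7% against 5.57%, then CAGTGC in 16.1% against 7.14%, ACACTG in 15.9% against 7%, ACTGTA in 15.4% against 6.86% and ACTGTG in 14.1% against 6%. These 6 share letters with one another, as TACAGT, the reverse complement of ACTGTA, does with ACAGTG, so they are not independent. Several of the others that rose were AT-rich, such as ATATTA in 27.4% against 16.4%, and words that fell were richer in G and C, such as GCAGGA in 3.57% against 9.14%. Mean GC content was 38.5% at summits and 40.4% at flanks. With windows of 50 bp to either side of the summit the counts were 24 and 11, ACAGTG still passed (exact McNemar adjusted p = 0.00692) and the next 5 words did not (adjusted p from 0.205 to 0.957). The counts were 30 and 3 with the flank taken first from the lower-coordinate side.

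ACAGTG was found in every replicate list and most often at the strongest peaks. It lay in 20.5%, 21.5% and 23.5% of distal intronic windows in replicates 1, 2 and 3, a mean of 21.8% ± 1.52 (SD, n = 3). By rank in the conservative list it lay in 37.2% of the 43 windows ranked 1 to 500 (95% Wilson interval 24.4% to 52.1%), in 22.7%, 25.2% and 21.7% of those at 501 to 1000, 1001 to 2000 and 2001 to 3000, and in 14.7% (11.2% to 19.1%) of the rest. By the number of replicate lists that held the peak, from 0 to 3, the shares were 15%, 18.8%, 21.6% and 25.1%. The word was picked from the conservative peaks, and the replicate lists hold many of the same sites. The replicate shares are therefore not independent of that choice.

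The word lay beside the summit rather than on it, and mostly with 1 strand facing in. It was chosen and mapped after its share was seen, so its position is given as a description with no test. Between 30 and 120 bp from the summit, ACAGTG was read towards the summit in 113 of 734 peaks (15.4%) and away from it in 41 (5.59%). It faced in from both sides in 31 peaks and out on both sides in 2. In the replicate lists the numbers were 72 and 29, 70 and 28, and 67 and 21. On the plus strand there were 98 copies from 140 to 20 bp before the summit and 26 in the same stretch after it, and on the minus strand 36 and 81. The middle 40 bp held 5 and 8 copies, near the 7.08 per 40 bp and strand found beyond 140 bp. Of the related words, ACACTG was also read mostly towards the summit, in 94 peaks against 27. The others were read mostly away from it. These were AGTGTA, in 99 peaks against 37, CAGTGC, in 86 against 35, ACTGTA, in 90 against 25, and ACTGTG, in 75 against 41. A word read away is its reverse complement read towards, so the facing depends on how a word is written. CAGTGC shares CAGTG with ACAGTG on the same strand, yet was read mostly away.

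**Figure D5:**
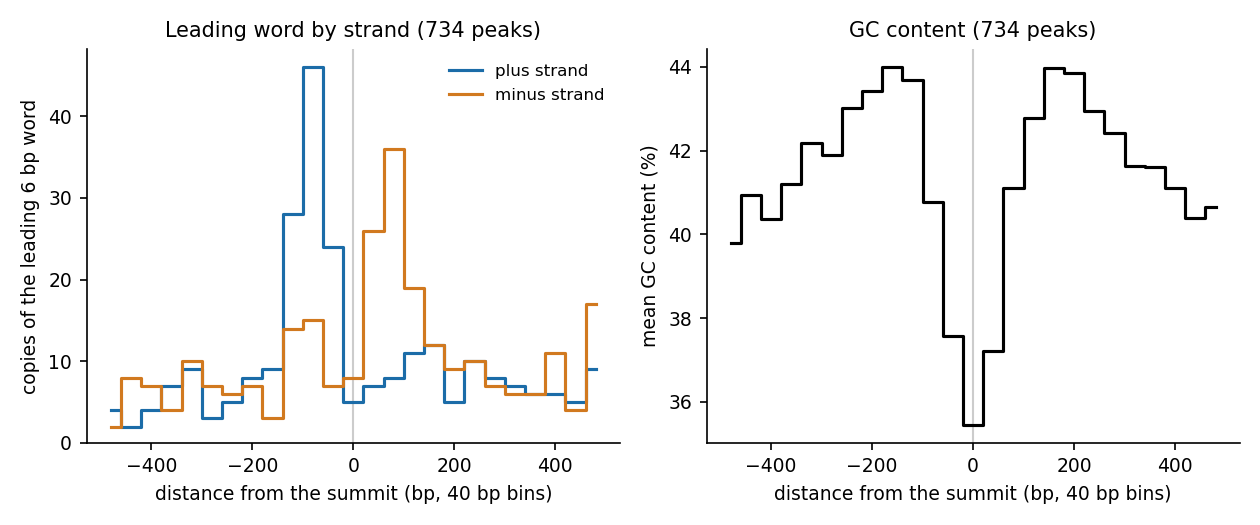
Left, copies of ACAGTG by strand in 40 bp bins of distance from the summit over 734 distal intronic peaks. Right, mean GC content in the same bins. The plus strand reaches 46 copies in a bin before the summit and the minus strand 36 after it, and GC content dips to 35.4% at the summit between shoulders of about 44.0%.

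Bases next to the word were uneven too. Among 144 copies read towards the summit, the base before the word was T in 47.9% and C in 37.5%, the one before that was G in 50% and the base after the word was G in 46.5%. GC content was 35.4% in the middle 40 bp, 44.0% at 140 to 180 bp before the summit and 39.8% at 460 to 500 bp. Single reads and their ends were not analysed here, and the part that summit placement has in the spacing was not tested.

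The word was shared with other intronic peaks. It lay in 22.1% of near-intronic windows, 15.5% of promoter windows and 15.1% of intergenic windows. The distal share was 4.91 points above that of promoters (Fisher exact adjusted p over all 6 bp words 0.0151), and neither the difference from near-intronic peaks, -1.68 points, nor that from intergenic peaks, 5.35 points, passed (adjusted p = 1 and 0.596). The inward reading was also seen in those classes, in 124 peaks against 51, 215 against 127 and 68 against 32.

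Promoter words set distal intronic summits apart from promoter summits. ATCGAT, the core of the DREF and BEAF-32 words, lay in 3.41% of distal intronic windows and 22.2% of promoter windows (Fisher exact adjusted p = 3.07e-38). TATCGATA, the DNA replication-related element, lay in 0 of 734, which allows a share of up to 0.409%, and in 9.98% of promoter windows. GGTCACACT, the M1BP word of core promoters, lay in 0.136% against 4.59%, and the E box CAGCTG in 8.04% against 14.05%. In the other direction AGATAA, the GATA word, lay in 13.2% against 9.54%, AGGTCA, a nuclear receptor word, in 5.31% against 2.51%, ATGCAAAT, the POU octamer, in 3.54% against 1.80%, and ACAATG in 12.3% against 8.34%. These 4 passed with adjusted p of 0.0365, 0.00566, 0.0437 and 0.0204, but none of them did in the peaks found in all 3 replicate lists or in windows of 50 bp to either side. Of all 6 bp words, 9.95% were higher and 12.9% lower at distal intronic than at promoter summits, so such differences were common.

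No word was called different between distal intronic and near-intronic windows. None of the 2080 words of 6 bp was called higher (0%) or lower (0%) by Fisher's exact test, with a smallest adjusted p of 0.504, while 99 had an unadjusted p below 0.05. None of the listed words was called either, the nearest being GAGAGAG, the GAGA factor word, in 5.04% against 7.95% (Fisher exact adjusted p = 0.133), the only listed word with an unadjusted p below 0.05. In the list of 6387 peaks 1 listed word was called lower at distal intronic summits, as was 1 without replicate 3. Against intergenic windows none of the 6 bp words was higher (0%) and 1 was lower (0.0481%), while 131 had an unadjusted p below 0.05. Of the listed words ATCGAT, at 6.95% in intergenic windows, and TATCGATA, at 1.18%, were lower at distal intronic summits (Fisher exact adjusted p = 0.0293 and 0.0269). Of these 2 calls 1 was left in the list of 6387 peaks, and 0 with windows of 50 bp to either side, in peaks found in all 3 replicate lists or leaving out any replicate.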

How the data were processed

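The authors deposited peak lists on dm6 for each of 3 libraries and for the series, with 4 series-level thresholded lists derived from all 3 alignments, whose pairs or pools of replicates are not stated. Peak signal is a deposited enrichment value from the authors and was used only to rank peaks within a list. IDR values were deposited as −log10 in the ranked lists, and every peak of each thresholded list had an IDR of at most 0.01. Fragments were of 200 to 800 bp, per the labels. An aligner or peak caller is not given in the sources used here, and read depth is unknown. In each series-level ranked list 8 columns of unnamed samples were not used.

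Summits (start plus offset) were placed on Ensembl release 115 genes, and 99.8% of annotated start codons read ATG in the dm6 sequence used. Python 3.11.15, numpy 2.4.6, pandas 2.3.3, scipy 1.17.1 and matplotlib 3.10.9 were used, and the word and share tests were tested on simulated data. Classes were promoter (within 250 bp of a TSS), intronic near a start site (up to 2000 bp), distal intronic, intergenic and exonic. Overlap was 1 bp or more. Tests were two-sided and exact, with Benjamini-Hochberg adjustment and a threshold of 0.05.

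Genes were named by rule: the 20 strongest peaks in all 3 replicate lists, the 10 genes with most peaks, up to 4 genes of each list by signal, the 3 peaks on either side of the distance limit, the 5 farthest, and the 5 strongest in no replicate list. A few were named outside it: N, chinmo and Gs2, which complete short lists, genes that overlap a named gene, and the genes beside noncoding RNA starts. Members and lists were chosen with earlier results of these data known.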

Additional observations from a re-analysis of the deposited data

How the results depend on the processing

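Of 96 recomputed values of the main comparisons, 78 kept their direction and side of the threshold, or stayed within 1.5 times of the count. The share of summits, the share in the top 25% and the first intron comparisons all did. Leaving out a replicate meant keeping conservative peaks that overlap both other replicate lists. Distal minus promoter recurrence was -6.09 points at 5000 bp. Distal minus near-intronic recurrence was -3.73 points with 50% of the peak covered, -3.36 at 5000 bp, and -7.34 to -5.02 leaving out each replicate. The 6 bp words more frequent at summits numbered 24 with 50 bp windows, 22 in peaks of all 3 replicate lists and 22 to 30 leaving out each replicate, and 17, 14 and 16 to 17 of these were among the 39. Words less frequent numbered 11 with 50 bp windows, 3 with the lower-coordinate flank first, 9 with the flank 2000 bp away, 9 in peaks of all 3 lists and 6 to 17 leaving out each replicate. Listed words higher than at promoters, 4 in the report, numbered 0 with 50 bp windows, 0 in peaks of all 3 lists and 0 to 0 leaving out each replicate. The settings on recurrent peaks hold fewer peaks, while the 50 bp and lower-flank settings used as many as the main one. The log2 ratio of TAATTA at summits over flanks, -0.12, was 0 with 50 bp windows, 0.060 with the flank 2000 bp away, 0.30 in peaks of all 3 lists and 0.33 to 0.46 leaving out each replicate, and none passed. The cause of these shifts was not tested. Chosen after seeing the data, the inward to outward ratio of ACAGTG, 2.76, was 3.92 in peaks of all 3 lists, 2.13 in the list of 6387 peaks, and 4.08, 4.33 and 3.11 without replicates 1, 2 and 3. The homeodomain list's density over all genes went from 0.784 to 0.177 in peaks of all 3 lists, that of axon guidance from 0.354 to 0.198, that of synapse genes from 0.281 to 0.161 and that of glial genes from 3.62 to 1.91. No paired analysis was possible because there is 1 group. Without a control or read depth, the lists cannot show which sites are particular to the fusion.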
